A study of Drosophila melanogaster with 2 samples.

Results

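The peaks of CG31441-eGFP are described here at 10 genes of the Notch pathway, out of 13968 protein-coding genes that the annotation places on 7 chromosome arms. The 10 genes are the receptor Notch (N), its ligands Delta (Dl) and Serrate (Ser), the ubiquitin ligase neuralized (neur), the nuclear factors mastermind (mam), Suppressor of Hairless (Su(H)) and Hairless (H), and the target genes E(spl)mdelta-HLH, E(spl)mgamma-HLH and E(spl)m8-HLH. They were chosen by name for their place in the pathway, with earlier results of these data known. All 10 were found in the annotation, Dl under its symbol Delta. CG31441 is a predicted zinc-finger protein of Drosophila melanogaster. There was 1 group with 2 biological replicates, both of whole embryos aged 0 to 16 hours with a CG31441-eGFP transgene, and DNA bound by the tagged protein was recovered from sonicated chromatin with anti-GFP. The labels do not say which promoter drives the transgene, and whole embryos mix all tissues of these stages. Untagged embryos and input libraries were not analysed here, and peak lists hold no expression values, so stage and tissue could not be checked against marker genes.

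Notch is a receptor on the cell surface that is cut when a ligand on a neighbouring cell pulls on it. The freed intracellular part enters the nucleus and joins Su(H) and Mam, and this complex switches on target genes, while in its absence Su(H) and Hairless keep them off. In the fly embryo the pathway is best known for lateral inhibition, in which cells that start to become neuroblasts keep their neighbours epidermal. The targets studied most are the genes of the Enhancer of split complex, E(spl), a cluster of small genes that includes basic helix-loop-helix (bHLH) repressors and relatives of Bearded.

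A summit is the base within a peak at which the authors' caller placed its highest point, and signal is the authors' own value for the peak. Its scale is unstated and may not be the same in each list, so the percentile of a value, the percentage of its own list at or below it, is given as well for the main sites. Means and SDs over the replicates are of the deposited values and hold any such difference in scale. The conservative list, made from both replicates together, held 6501 peaks with a median signal of 180.4, and a less strict list held 7408 peaks with a median of 167.9. The thresholded list of replicate 1 held 4964 peaks (median 129.8) and that of replicate 2 held 5484 (median 88.2). The authors also ranked peaks of single replicates before any threshold, 27371 in replicate 1 (median 33.2) and 31490 in replicate 2 (median 20.5). Read counts are not in these lists, so depth is unknown, and lists made from the same libraries are not independent of each other.

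Of the 10 Notch pathway genes, 4 had a conservative summit at a promoter, which is within 500 bp of any transcription start site (TSS) of the gene. These were N, mam, neur and E(spl)mdelta-HLH, and the share over all protein-coding genes was 18.2%. A summit within the gene body was found at 4 genes (N, Dl, mam and neur), against 12.7% of all genes. A summit in the body or within 5 kb of it was found at 7 genes, all except Ser, Su(H) and H, against 47.4% of all genes. With a distance of 250 bp in place of 500 bp, only neur kept a conservative promoter summit, 1 of the 10, against 14.0% of all genes. Other lists held summits within 250 bp of a TSS at N, mam, Dl or Su(H) as well, described below. The share of all genes at 250 bp was taken for the conservative list only. The 6 conservative promoter summits of the 4 genes all lay upstream of the TSS, as did 82.7% of all promoter summits. With 1 condition, and with 10 chosen genes that are not replicates, no test of these counts was made.

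The same 4 genes had a promoter summit in the less strict list (21.0% of all genes), where Ser replaced Dl in both other counts, which stayed at 4 for the body (14.0%) and 7 within 5 kb (51.0%). Replicate 1 alone gave 5 genes with a promoter summit, adding Su(H) (17.3% of all genes), 3 with a body summit (11.0%) and 7 within 5 kb (44.1%). Replicate 2 alone also gave 5 at the promoter, with Dl in place of Su(H) (18.4%), 4 in the body, with Ser in place of Dl (12.4%), and 8 within 5 kb (47.9%). The same 4 genes therefore carried a promoter summit in all of these lists, though at mam not at the same site in each. The ligands and Su(H) moved in and out with the list. In the ranked lists before thresholding, 8 genes in replicate 1 and 9 in replicate 2 had a promoter summit, where the shares over all genes were 35.1% and 43.1%. In these lists 7 and 6 genes had a body summit (24.7% and 29.4% of all genes), and 9 of 10 had one within 5 kb in each replicate (71.0% and 74.7%). H alone had no summit within 5 kb in any of the 6 lists.

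**Figure D1:**
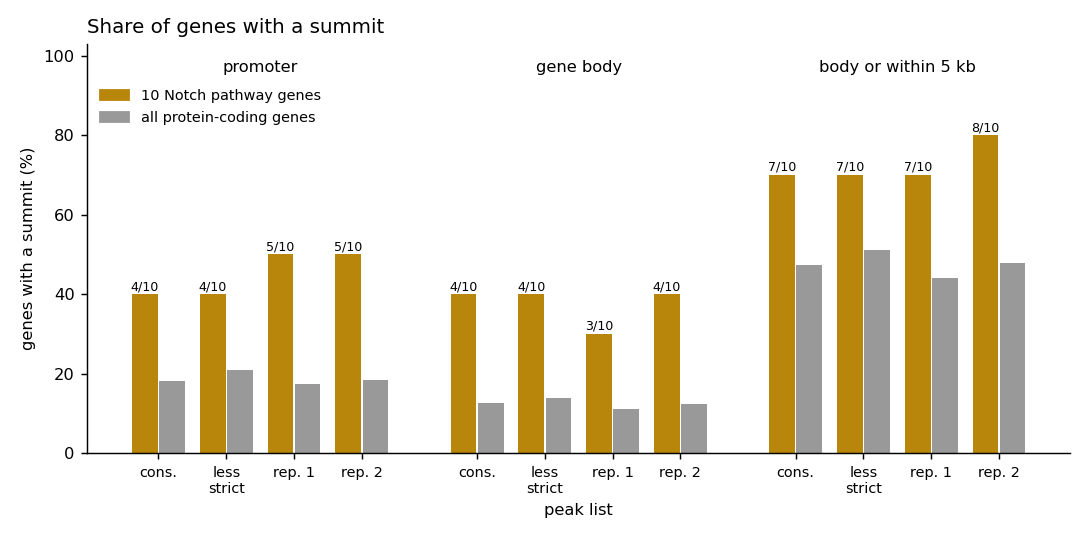
Percentage of genes with a summit at a promoter, in the gene body, or in the body or within 5 kb, in the conservative, less strict and single-replicate thresholded lists. Left bars are the 10 Notch pathway genes, with counts above them, and right bars are all 13968 protein-coding genes. The left bar is the higher one in each of the 12 pairs, with counts of 3 to 8 of 10 genes. The bars are not matched for gene length, and the lists come from the same libraries, so the pairs are not independent.

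The 10 genes differ widely in length, and longer genes hold more summits, so each was also set beside genes of its own length class. Of the 3 E(spl) genes, all shorter than 2 kb, 1 had a promoter summit, 0 had a body summit and 3 had one within 5 kb, and these shares over the 6532 genes of that class were 12.3%, 2.24% and 39.1%. Su(H), the only one between 2 and 5 kb, had none in the conservative list, where the class had 20%, 8.65% and 47.8%. Of H and neur, between 5 and 20 kb, neur had all 3 kinds and H had none, and the class had 25.9%, 27.4% and 58.3%. Among N, Dl and Ser, between 20 and 50 kb, 1 had a promoter summit, 2 a body summit and 2 a summit within 5 kb, and the class had 30.1%, 56.6% and 72.0%. The longest gene, mam, of over 50 kb, had all 3 kinds, as 31.1%, 67.6% and 75.0% of its class had.

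N, the receptor gene (FBgn0004647, chrX:3134870-3172221 on dm6, plus strand), had a promoter summit and a stronger one deep in an intron, each found in both replicates. The promoter summit lay 333 bp upstream of the TSS in a peak from 3134389 to 3134648. It had a signal of 230.3 in the conservative list, at or above 65.5% of that list. In the single replicates its signal was 121.4 in replicate 1 and 112.6 in replicate 2 (117.0 ± 6.2, SD, n = 2), and the replicate summits lay 4 bp apart. It lies just beyond the annotated end of kirre, an adhesion gene of muscle founder cells. Closer to the TSS, the less strict list also held a summit of 109.9 at 120 bp upstream. Replicate 2 held a thresholded one of 76.7 at 130 bp upstream, and the conservative list held none there. The intronic summit lay 27661 bp downstream of the TSS in a peak from 3162317 to 3162741, with a signal of 427.1, at or above 92.5% of the list. Its signal was 205.4 in replicate 1 and 211.9 in replicate 2 (208.6 ± 4.6, SD, n = 2). Within their own lists the promoter stood at the 43.6 percentile in replicate 1 and 67.1 in replicate 2, and the intronic site at 82.7 and 94.2. Both sites of N thus passed the threshold in each replicate, at a higher percentile in replicate 2. The same intronic interval held a second, weak summit of 51.7, which in the single replicates appeared only before thresholding. The sequences around the promoter and intronic summits are shown because they carry the clearest peaks of the receptor gene. They were read 5′ to 3′ on the plus strand from RefSeq's dm6 genome (chrX:3134533-3134637, cut where the untranslated exon of kirre ends, and chrX:3162431-3162631), and capitals mark runs of at least 8 A or T bases.
N promoter: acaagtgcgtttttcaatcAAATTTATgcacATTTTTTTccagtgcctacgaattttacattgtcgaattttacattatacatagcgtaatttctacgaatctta
N intron: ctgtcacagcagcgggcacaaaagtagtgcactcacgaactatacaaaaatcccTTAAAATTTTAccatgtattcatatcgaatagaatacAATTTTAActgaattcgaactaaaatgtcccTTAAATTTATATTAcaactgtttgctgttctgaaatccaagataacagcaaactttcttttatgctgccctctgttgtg
Such runs made up 15.2% of the bases of the promoter stretch and 16.4% of those of the intronic window.

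The ligand genes carried weaker peaks, and each depended on the list. Dl (FBgn0000463, chr3R:19302731-19326217, minus strand) had 1 conservative summit, in an intron 4612 bp from the TSS, with a signal of 127.9, at or above 24.3% of the list. In the single replicates this site appeared only before thresholding, with 84.6 in replicate 1 and 38.4 in replicate 2. The promoter of Dl passed the threshold in replicate 2 alone, with 69.7 at 83 bp upstream of the TSS, and the ranked list of replicate 1 held 64.2 at 261 bp upstream. Ser (FBgn0004197, chr3R:27172090-27194267, minus strand) had no conservative summit within 5 kb. The less strict list held 106.3 in an intron at 7652 bp and 95.0 at 3535 bp upstream. The intronic site of Ser had 57.9 in the thresholded list of replicate 2, and in replicate 1 only the ranked list held a summit there, with 40.7. Both ligand genes thus stood below the median of each thresholded list in which they appeared.

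The ubiquitin ligase neur (FBgn0002932, chr3R:9020348-9039471, minus strand), whose product acts in the signalling cell to bring about endocytosis of Delta, had 3 strong summits, all present in both replicates. It has 2 TSSs, and a summit lay 191 bp upstream of each. At the outer TSS the conservative signal was 374.4, at or above 88.4% of the list, with 266.6 in replicate 1 and 118.6 in replicate 2 (192.6 ± 104.6, SD, n = 2). This site lies within 500 bp of a TSS of hyx as well, a gene for a part of the Paf1 elongation complex, in an intron of that gene. At the inner TSS the signal was 380.5, with 228.4 in replicate 1 and 157.3 in replicate 2 (192.8 ± 50.3, SD, n = 2). The remaining summit, in an intron 1698 bp past the inner TSS, had a signal of 297.6, with 135.9 in replicate 1 and 151.2 in replicate 2 (143.6 ± 10.8, SD, n = 2). Within their own lists these sites stood at the 93.1, 87.3 and 54.1 percentiles in replicate 1, and at 70.1, 84.3 and 82.6 in replicate 2. By deposited value and by percentile alike, replicate 1 was the higher at both promoters and the lower in the intron. The 2 body summits of neur compare with a median of 0 in its length class, in which 12.2% of genes had as many or more. The inner promoter and the intronic site are shown as plus-strand sequence (chr3R:9033822-9034022 and chr3R:9031933-9032133, RefSeq genome, dm6, capitals as above), since they lie within neur alone.
neur inner promoter: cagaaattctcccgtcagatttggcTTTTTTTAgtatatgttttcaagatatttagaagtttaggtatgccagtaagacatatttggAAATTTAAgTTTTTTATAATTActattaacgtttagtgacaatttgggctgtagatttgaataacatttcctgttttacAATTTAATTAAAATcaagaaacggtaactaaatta
neur intron: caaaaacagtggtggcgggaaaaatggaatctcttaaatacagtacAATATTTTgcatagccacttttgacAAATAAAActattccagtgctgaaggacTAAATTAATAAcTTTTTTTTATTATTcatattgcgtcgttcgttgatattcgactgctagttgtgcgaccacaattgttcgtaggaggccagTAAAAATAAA
A/T runs made up 21.4% of the first and 25.4% of the second, and the longest run had 14 bases in each.

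**Figure D2:**
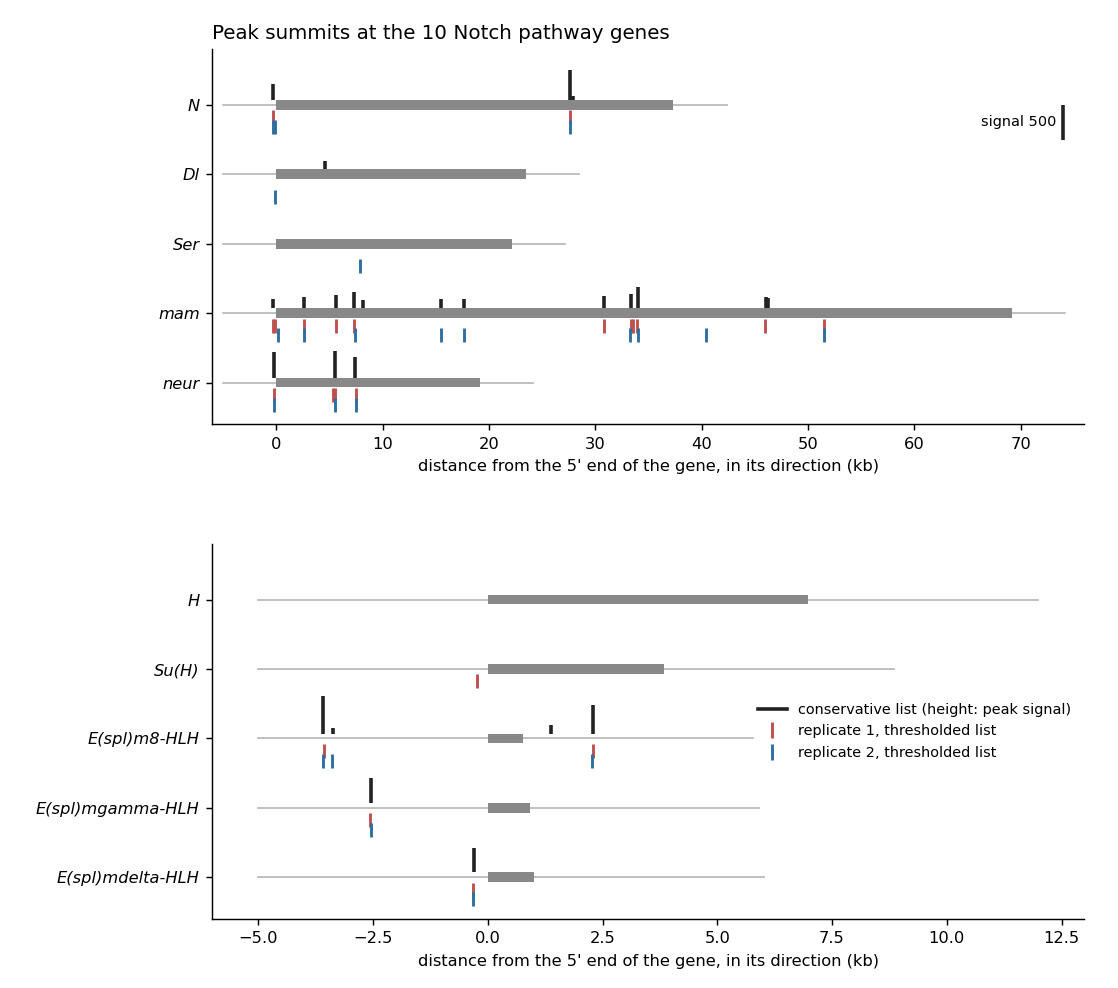
Position of peak summits along each of the 10 genes, in kb from its 5' end in the direction of transcription, with 5 kb to each side. Black ticks are conservative summits, with height for signal, red and blue ticks are thresholded summits of replicates 1 and 2, and the thick bar is the gene, so that the 12 summits of mam, the paired sites of neur and the empty locus of H can be seen.

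The coactivator gene mam (FBgn0002643, chr2R:13991203-14060356, plus strand), the longest of the 10, held 12 of the 24 conservative summits, most of them of low or middling signal. Its 11 body summits compare with a median of 2 among the 312 genes of 50 kb or more, and 23 of these genes (7.37%) had as many or more. Per length this was 1.59 summits in each 10 kb, against a median of 0.24 in that class. Overlapping peaks were not merged in these counts, for mam or for its class. At mam the peaks of the summits of 162.8 and 147.8 overlap, and both were counted. The signal of the 12 ranged from 122.7 to 312.0 with a median of 162.1, and 4 reached the list median. Inside thresholded peaks, 4 were present in both replicates, 5 in replicate 1 alone, 2 in replicate 2 alone and 1 in neither. The strongest lay in an intron 6466 bp upstream of the nearest internal TSS, with a signal of 312.0, and had 183.9 in replicate 1 and 177.4 in replicate 2 (180.7 ± 4.6, SD, n = 2). A further intronic site of 231.4 had 124.4 in replicate 1 and 108.8 in replicate 2, and another of 202.8 had 127.8 in replicate 1 and 126.5 in replicate 2. By percentile these sites stood at 76.3, 45.7 and 48.5 in replicate 1 and at 88.9, 64.8 and 74.3 in replicate 2. The other summit of mam at or above the list median, of 195.2, was thresholded in replicate 1 (121.2) and found in replicate 2 only before thresholding (77.6). The promoter sites of mam were less even. The summit 310 bp upstream of the outer TSS, shared with RN-tre, which encodes a regulator of Rab GTPases, had a conservative signal of 131.0, with 152.2 in replicate 1 and no peak in replicate 2 within 100 bp. Replicate 2 instead had a thresholded summit of 72.3 at 138 bp downstream of that TSS. The less strict list also lacked the upstream summit, and held 116.3 at 100 bp and 11.7 at 299 bp downstream. At an internal TSS the summit 329 bp upstream had 131.2, with 80.7 in replicate 1, before thresholding only, and 51.3 in replicate 2. Replicate 2 also had 96.6 at 78 bp upstream of the other internal TSS, where the conservative list held none and the less strict list held 110.4.

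Su(H) and H, whose products bind each other to keep target genes off, had no conservative summit within 5 kb. Su(H) (FBgn0004837, chr2L:15039488-15043334, plus strand), the DNA-binding factor of the pathway, had a promoter summit in replicate 1 alone, 243 bp upstream of the TSS and shared with CIAPIN1, a gene of iron-sulphur cluster assembly. Its signal of 213.7 was at or above 84.8% of the thresholded list. The nearest summits of replicate 2 were found only before thresholding, with 21.2 at 411 bp and 33.0 at 610 bp upstream. The promoter site of Su(H) thus passed the threshold in 1 replicate, whereas those of N, neur and E(spl)mdelta-HLH passed it in both. H (FBgn0001169, chr3R:20621938-20628915, plus strand), which links Su(H) to the corepressors Groucho and CtBP, had 0 summits in each of the 6 lists.

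The bHLH repressor gene E(spl)mdelta-HLH (FBgn0002734, chr3R:25997621-25998633, plus strand) had a strong promoter summit, whereas E(spl)mgamma-HLH and E(spl)m8-HLH, repressors of the same family, had summits only at a distance. The summit of E(spl)mdelta-HLH lay 305 bp upstream of its TSS, between it and the divergent gene CG43116. Its conservative signal was 357.2, at or above 86.5% of the list. In the single replicates it was 179.3 in replicate 1 and 189.5 in replicate 2 (184.4 ± 7.2, SD, n = 2), with summits 2 bp apart, at the 74.9 and 90.9 percentiles of those lists. The same summit, 2535 bp upstream of E(spl)mgamma-HLH (FBgn0002735, chr3R:25999851-26000761, plus strand), was the only conservative one within 5 kb of that gene. E(spl)m8-HLH (FBgn0000591, chr3R:26040240-26041008, plus strand) had 4 summits within 5 kb, all of them near the TSS of a neighbour. The strongest lay 379 bp upstream of E(spl)m7-HLH with a signal of 537.2, at or above 97.5% of the list, and had 301.4 in replicate 1 and 229.8 in replicate 2 (265.6 ± 50.6, SD, n = 2). On the other side of E(spl)m8-HLH, a summit in the groucho gene (gro), 109 bp upstream of an internal TSS of that corepressor gene, had 404.3, with 226.6 in replicate 1 and 175.2 in replicate 2 (200.9 ± 36.3, SD, n = 2). By percentile the E(spl)m7-HLH site stood at 96.4 in replicate 1 and 95.8 in replicate 2, and the gro site at 87.0 and 88.5. The remaining pair was weaker, with 79.5 beside the E(spl)m7-HLH summit in the same interval and 119.3 at 110 bp upstream of the outer TSS of gro, the second found in the single replicates only before thresholding. At the promoters of E(spl)m8-HLH and E(spl)mgamma-HLH themselves the ranked lists held only weak peaks. The strongest were at or above 0.7% of the ranked list of replicate 1 at E(spl)m8-HLH and 11.1% at E(spl)mgamma-HLH, and at or above 28.6% and 49.5% of that of replicate 2. The windows below are those of the strongest sites near the E(spl) genes among the 10 (chr3R:25997216-25997416, chr3R:26036559-26036759 and chr3R:26042432-26042632, plus strand, RefSeq genome, dm6, capitals as above).
E(spl)mdelta-HLH promoter: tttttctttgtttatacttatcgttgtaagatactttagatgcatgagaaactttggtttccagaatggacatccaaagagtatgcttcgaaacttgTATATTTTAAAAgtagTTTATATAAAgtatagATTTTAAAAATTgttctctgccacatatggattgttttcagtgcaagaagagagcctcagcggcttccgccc
E(spl)m7-HLH promoter, upstream of E(spl)m8-HLH: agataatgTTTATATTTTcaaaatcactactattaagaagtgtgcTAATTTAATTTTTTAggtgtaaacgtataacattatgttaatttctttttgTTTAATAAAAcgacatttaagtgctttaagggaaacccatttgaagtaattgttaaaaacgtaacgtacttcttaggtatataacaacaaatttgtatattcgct
gro internal promoter, downstream of E(spl)m8-HLH: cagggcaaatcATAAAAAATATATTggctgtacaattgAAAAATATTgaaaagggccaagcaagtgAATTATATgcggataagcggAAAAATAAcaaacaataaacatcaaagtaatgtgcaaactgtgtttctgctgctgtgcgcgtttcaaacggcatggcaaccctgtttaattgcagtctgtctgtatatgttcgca
A/T runs made up 16.9%, 17.4% and 19.4% of these windows in that order.

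Across the E(spl) complex, from the start of E(spl)mdelta-HLH to the end of gro (chr3R:25997621-26049911, 52.3 kb), the conservative list held 12 summits, and the promoter summit of E(spl)mdelta-HLH lay just outside. This is 2.29 summits in each 10 kb, against 0.471 over the genome. The genome here is all 137.5 Mb of the 7 arms, the Y chromosome included, and gene-poor sequence was not left out. When the genome was divided into 2627 tiles of the same length, the median tile held 2 summits and 28 tiles (1.07%) held 12 or more. Some of the 12 share an interval, and with overlapping peaks merged the complex held 9. The density and the tile counts are of unmerged summits. The median signal of the 12 was 326.6 and 8 reached the list median. Of the 12, 11 were intergenic and 1 intronic, against 42.9% and 49.2% of all summits, in a locus made up mostly of small genes. Inside thresholded peaks of both replicates lay 9 of the 12, against 54.6% of all summits. The strongest stood 408 bp upstream of E(spl)m3-HLH, another bHLH repressor gene, with 602.9, and had 379.8 in replicate 1 and 206.1 in replicate 2. Next after the E(spl)m7-HLH promoter came the site 476 bp upstream of E(spl)m2-BFM, a gene of the Bearded family, with 485.0 (280.5 in replicate 1 and 202.5 in replicate 2). A site 1804 bp upstream of E(spl)malpha-BFM had 424.3, and one 261 bp upstream of Kaz-m1, the gene also called E(spl)m1, had 276.8. No conservative summit lay in a coding or untranslated exon of the complex. A promoter summit was found at 5 of its 12 E(spl) genes, all of them upstream, against 18.2% of all genes and 12.3% of those under 2 kb.

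**Figure D3:**
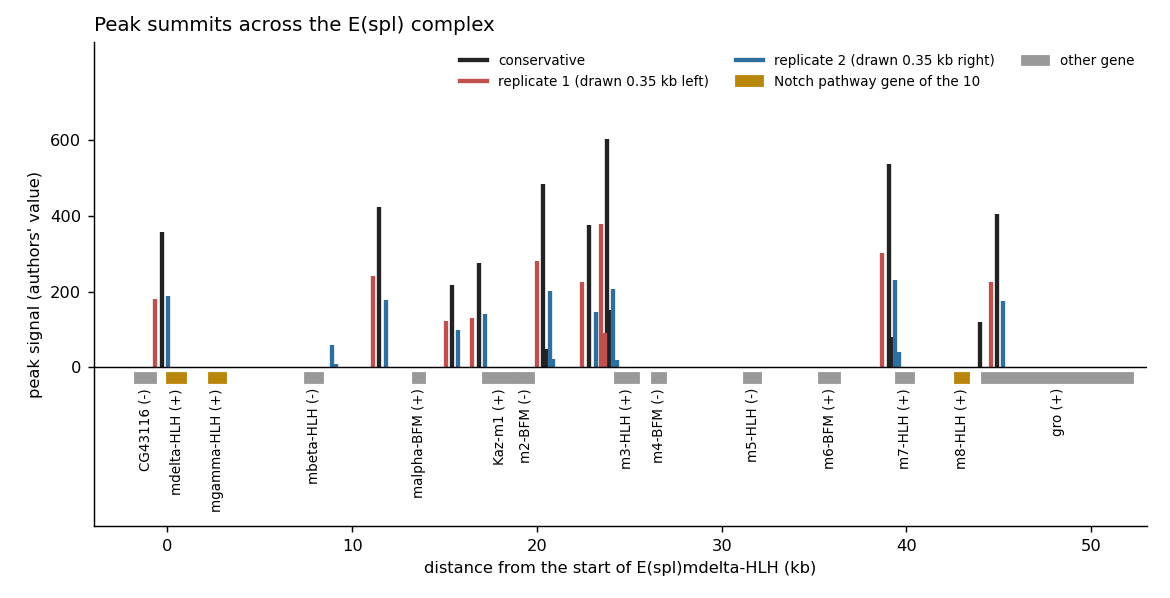
Signal of conservative summits (black) and of thresholded summits of replicate 1 (red, shifted to the left) and replicate 2 (blue, shifted to the right) against distance from the start of E(spl)mdelta-HLH in kb. Boxes are genes with their strand, the 3 E(spl) genes among the 10 in gold, and the highest bars stand upstream of E(spl)m3-HLH (602.9), E(spl)m7-HLH (537.2) and E(spl)m2-BFM (485.0), with none between E(spl)mdelta-HLH and E(spl)mbeta-HLH.

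The 24 conservative summits at the 10 genes, which form 21 regions once overlapping peaks are merged, were of ordinary strength for this list. Their median signal was 183.7, with a range of 51.7 to 537.2, against 180.4 over all 6476 summits on the 7 arms. Inside thresholded peaks of both replicates lay 12 of the 24, against 54.6% of all summits, while 5 were in replicate 1 alone, 2 in replicate 2 alone and 5 in neither. Without mam, 8 of the other 12 reached the list median, against 4 of the 12 at mam. At the 12 sites with a thresholded summit in both replicates within 100 bp, the replicate summits lay a median of 14.5 bp apart, and 39 bp at most, against a median of 21 bp at 3333 such sites overall. Replicate 1 had the higher deposited signal at 9 of the 12, with a median ratio to replicate 2 of 1.11 and a range of 0.90 to 2.25, the highest at the outer promoter of neur. Over the 3333 sites replicate 1 was higher at 86.7% with a median ratio of 1.32, and the medians of the 2 lists themselves had a ratio of 1.47. By percentile within its own list the direction turned, and replicate 1 was the higher at 4 of the 12 and replicate 2 at 8, while replicate 1 was the higher at 40.5% of the 3333 sites. Peaks of the commonest width in the list, 560 bp, made up 5 of the 24, and 4 of these were at mam, against 28.5% of all summits. Their median signal over the list was 124.3, against 223.8 for peaks of other widths.

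**Figure D4:**
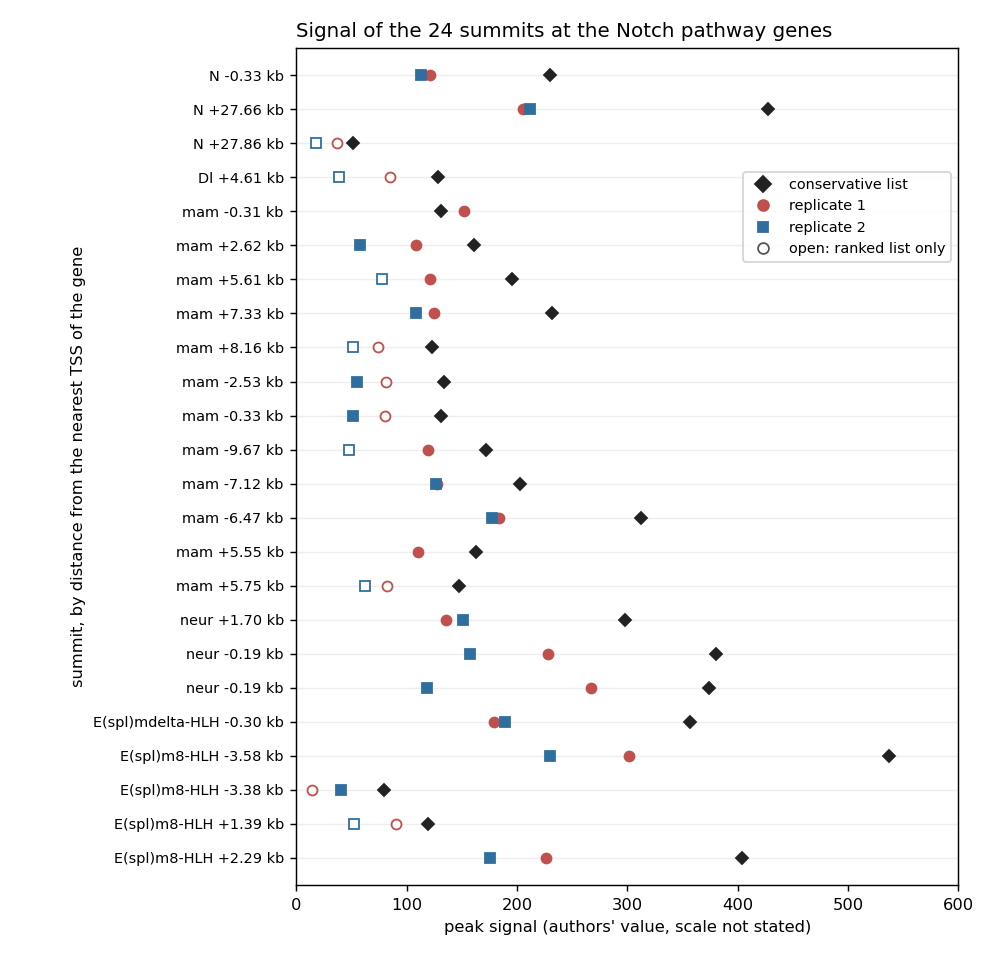
Peak signal of the 24 summits at the Notch pathway genes in the conservative list (black diamonds), replicate 1 (red circles) and replicate 2 (blue squares), with open symbols for peaks found only before thresholding. Rows are summits, named by gene and distance in kb from its nearest TSS. The strongest conservative summit (537.2) is listed under E(spl)m8-HLH, 3581 bp upstream of it, but stands at the promoter of its neighbour E(spl)m7-HLH. The weakest lies in the intron of N (51.7). Replicate values are as deposited, on scales that may differ.

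By position, 18 of the 24 summits lay in introns and 6 between genes, against 49.2% and 42.9% of all summits, and 11 of the 18 were in mam alone. The 24 were taken for lying in or within 5 kb of these genes, so the shares by position depend on that choice. Untranslated exons held 0 and coding exons 0, against 7.29% and 0.633% of all summits. On sequence soft-masked as repeat lay 8 of the 24, against 27.1% of all summits. The bases around the summits were poor in G and C. Within 50 bp of the summit, G and C made up a median of 28.2%, with a range of 15.8% to 51.5%, against 45.5% in flanks centred 400 bp away. Over all summits these values were 29.7% and 44.1%. The content was lower than in the flanks at 23 of the 24, against 82.8% of all summits. The exception was the weak second summit in the intron of N, where it was 51.5%, against 47.0% in its flanks, and the weak second summit beside E(spl)m7-HLH came next with 49.5%. Runs of at least 8 A or T bases took up a median of 19.4% of the bases within 100 bp, against 5.3% in the flanks, and over all summits 17.4%, against 7.0%.

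**Figure D5:**
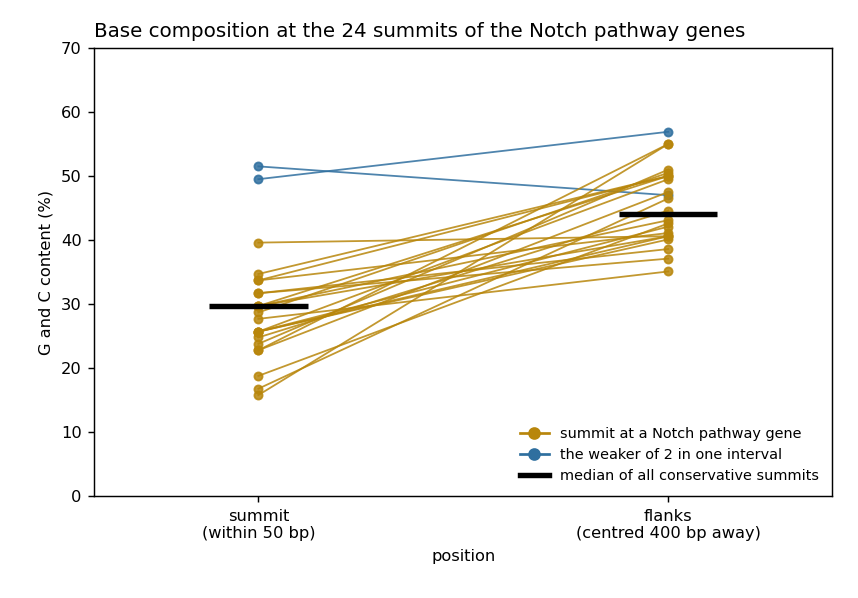
G and C content (%) within 50 bp of each of the 24 summits at the Notch pathway genes and in its flanks 400 bp away, joined by a line, with black bars for the medians of all conservative summits. All lines rise towards the flanks except that of the second summit in the intron of N (51.5% and 47.0%), one of 2 weaker summits of shared intervals drawn in blue.

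The recognition words of pathway factors were searched on both strands within 100 bp of each summit, and a match is only a description of the letters. The words for Su(H) were CGTGGGAA, TGTGGGAA, CGTGAGAA and TGTGAGAA, and 0 of the 24 windows held one, against 1.87% of all summits. Over the whole peak, 2 of the 24 held one, against 4.18% of all peaks, and these are the 2 summits of the intronic peak of N, which share 1 interval and the same word. The E-box CANNTG, the general bHLH word, was in 14 windows (58.3%), against 55.9%. The N-box CACNAG, a word known for bHLH repressors of the hairy and E(spl) kind, was in 1 window (4.17%), against 17.2%. GAGAG, the core of the GAGA word, was in 6 (25.0%), against 20.3%, and the promoter element DRE, TATCGATA, and the Zelda word CAGGTAG were in 0, against 2.59% and 0.911%. An E-box CAAGTG lay within a few bases of the promoter summit of N, where the sequence above holds it. Across the E(spl) complex the Su(H) words occurred 38 times, and 1 of them (2.63%) lay within 100 bp of a conservative summit, against 0.907% of 14551 such words in the genome. That one stood 96 bp from a summit of 376.5, which is 1384 bp upstream of E(spl)m3-HLH. Summits are also denser in the complex (2.29 in each 10 kb, against 0.471 over the genome). The 2 percentages were not adjusted for this, so they cannot show whether there is an excess of words near summits. The median distance of the 38 words from the nearest summit was 1810.5 bp.

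A wider list of 63 pathway genes, written from textbook knowledge, includes the 10, and 61 of its genes were in the annotation. A conservative promoter summit was found at 18 of the 61 (29.5%), and at 14 of the 51 (27.5%) without the 10, against the 18.2% of all genes given above. Genes of the E(spl) complex, a single summit-dense locus and so not independent of each other, gave 5 of the 18. The gene gro, in the same locus, is another of them. A body summit was found at 15 of the 61 (24.6%), and at 11 of the 51 (21.6%) without the 10, against 12.7% of all genes. The wider list was not matched for gene length. Body summits were found at 2.24% of all genes under 2 kb and at 67.6% of those of 50 kb and over. Among the 9 genes of receptor cleavage and glycosylation, 5 had a promoter summit, namely the gamma-secretase genes aph-1 (429.7) and pen-2 (249.5), the fucosyltransferase gene O-fut1 (156.4), the glucosyltransferase gene rumi (437.0) and the furin protease gene Fur1 (544.5). Each of these sites also lies within 500 bp of a TSS of another gene, Snx21, Ote, CysRS-m, CG7029 with Usp12-46, and Vps33B in that order. Of the 10 genes of ligand and receptor trafficking, 3 had one, neur, the Notch inhibitor numb (358.0) and the endosomal sorting gene lgd (622.0, shared with Reps). Of the 8 nuclear factors and corepressors, 3 had one, mam, gro (404.3) and the Mediator kinase module gene skd (225.3, shared with Pdss2). Of 7 proneural genes only da had one (174.9), which encodes the common bHLH partner, and it was in a thresholded peak of replicate 1 but not of replicate 2. The 4 Bearded family genes outside the complex and the 8 other targets had 0. Of the 18 genes, 16 had their strongest promoter summit inside thresholded peaks of both replicates.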

How the data were processed

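ChIP-seq of CG31441-eGFP was analysed from the authors' peak lists for 2 biological replicates of 1 group, grouped and numbered by the labels. Per the readme deposited with each sample, peaks on dm6 were called on both replicates together and on each replicate, with 1 further file as input. No aligner, peak caller or version is named in the readme or the labels. Signal is the authors' deposited value per peak, of unstated scale, so percentiles within a list are given as well for the main sites. Of 8 lists 6 were used, and the 2 ranked lists of the series were not. Read depth is unknown. Summits were assigned to genes of Ensembl release 115 (BDGP 6.54), whose chromosome names match the lists once the prefix is removed, and sequence was read from RefSeq's genome of that assembly. Python 3.11.15, numpy 2.4.6, pandas 2.3.3 and matplotlib 3.10.9 were used. The gene calls were tested on simulated data, and 200 of 200 planted genes among 13968 were recovered. The 10 genes are named in full, and of the wider list every gene with a conservative promoter summit is named. The genes, lists and words were chosen with earlier results of these data known. No test was made, since there is 1 group of 2 replicates. Alternatives changed the peak list, the distances, the treatment of overlapping or masked peaks, and the search window.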

Additional observations from a re-analysis of the deposited data

How the results depend on the processing

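Of 59 alternative values of the counts, 55 lay within 1.5 times the reported count. Of the other 4, a promoter distance of 250 bp left 1 of the 10 genes with a conservative promoter summit, neur, in place of 4. Other lists held summits within 250 bp at N, mam, Dl or Su(H) as well, as given above. Keeping only peaks of at least the median signal left 12 of the 24 summits, and keeping only those in thresholded peaks of both replicates also left 12. Searching the whole peak found a Su(H) word at 2 summits in place of 0, both in the intronic interval of N. Taking either replicate alone gave 5 genes at the promoter, 3 to 4 in the body, 7 to 8 within 5 kb, 21 summits, 22 to 23 genes of the wider list, 9 to 13 summits in the E(spl) complex and 0 Su(H) words. Which ligand or nuclear factor is counted depends on the list, as given above for Dl, Ser and Su(H). The strongest signal at each gene was lower in the single replicates than in the conservative list at N, Dl, mam, neur and the 3 E(spl) genes, as far as a peak was present, and the lists may differ in scale. No paired analysis was possible because there is 1 group and no comparison between groups. Without read counts, an empty locus such as that of H cannot be told from one below the limit of detection.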
